A study of Xenopus laevis with 16 samples.

Results

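The cell cycle and DNA replication genes on the array were followed through the last blastula stage and the onset of gastrulation in Xenopus laevis, with and without POUV protein. They comprised 57 of the 21495 probes measured. A probe was taken where its gene name began with the symbol of a cyclin (A to E), a Cdk, a Cdc, Mcm, Orc, Plk, Aurora, Bub, Mad2, Wee1, Chk, PCNA, Cdt1 or geminin gene, or where its description named a cyclin, geminin, a minichromosome maintenance protein or an origin recognition protein. The gene name chose 41 of them and the description 27, with 11 chosen by both. The rule reads names and descriptions only, although it was written with earlier results of these data known.

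The embryos had received 60 ng of morpholino in each blastomere at the first cleavage, as a control oligo or as PVD2, a mixture directed against the POUV genes Xlpou25, Xlpou60 and Xlpou91, the Xenopus relatives of mammalian Oct4. RNA came from 3 whole embryos or from 25 animal caps per sample, at stage 9 (late blastula) or stage 10 (early gastrula), and the caps, explants of the ectodermal roof, had been cut at stage 8. That makes 8 groups, each with 2 samples except PVD2 caps of stage 10, of which 1 array was analysed here, so that 15 arrays were used. Each array set its sample, labelled with Cy3, against a common reference pooled from whole embryos of 11 stages, labelled with Cy5, and dyes were not swapped. Values below are log2 ratios of sample over reference, so that 0 is the level in the pool, and a difference of -1 is a fall of 2-fold. A morpholino blocks a transcript's use rather than its amount, so these arrays do not test the depletion itself. Nothing in the labels says that replicates came from separate clutches, and the p-values measure the spread between these samples only. In bulk samples, fewer cells of a type and less RNA per cell cannot be told apart.

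The early frog embryo divides on stores laid down in the egg. Its first cleavages run as rapid, synchronous rounds of S phase and mitosis without gap phases, driven by maternal cyclins and Cdk1. At the midblastula transition the zygotic genome switches on, cycles lengthen, gap phases appear, and many maternal transcripts are cleared. Several cell cycle proteins exist in a maternal form that is replaced by an embryonic one: cyclin A1 gives way to cyclin A2, and the maternal forms of Mcm3 and Mcm6 give way to zygotic ones. Stages 9 and 10 lie on the far side of this transition, and the class V POU factors act in the same period to keep embryonic cells uncommitted.

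Signal was sufficient for most of these genes. On each array 48 to 54 of the 57 probes were well above background in Cy3, and 47 were so on all 15 arrays. Cdc14 alpha was above background on 0 arrays, and 6 others on 1 to 7, among them cyclin B1 on 6 and mcm6 on 7, while Wee1B, p16Xic2 and cdc45l reached it on 13 or 14. No probe was saturated, and 53 had a value on every array. All genes called below in the stage comparison were well above background on all arrays. Of the whole arrays, 49.95 to 63.58% of probes were well above background, with a median net Cy3 signal of 17.8 to 35.0 on embryo arrays and 61.0 to 68.4 on cap arrays. Markers of vegetal and mesendodermal cells went with the tissue labels: they were lower in control caps for 10 of 10 probes, with a median difference of -3.38. Ectodermal markers were mixed. Of their 9 probes, 3 were called higher in caps and 2 lower, with a median difference of 0.25.

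As a group these transcripts stood above the pool at stage 9 and closer to it at stage 10. In controls of stage 9, averaged over embryos and caps, 40 of the 57 were above 0 and their median ratio was 0.39, while the median over all probes was 0.00. At stage 10, 33 were above 0, with a median of 0.16. Cdc6 (probe Xcdc6), the loader of the Mcm helicase, was at 1.27 to 1.97 in the 4 control arrays of stage 9, and its second probe, cdc6B, at 1.13 to 1.26. Cyclin D1, the partner of Cdk4 in G1, was at the other end, at -4.97 to -3.79.

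From stage 9 to stage 10, 12 of the 57 genes differed in the pooled controls of both tissues (limma, Benjamini-Hochberg FDR 0.05), 10 of them lower and 2 higher. Over all probes 4.97% were called, 2.76% lower and 2.21% higher. The genes that fell were cyclins A1, B2, B4 and B5, one cdc2 probe, Xcdc25-3, Orc4, geminin L, Mcm3 and Cdc7. Those that rose were cyclin D1 and cdc37. The median change over the 57 was -0.07, against 0.00 over all probes, and the median size of change was 0.22, against 0.08. A block on the slide or on the replicate number takes out differences shared by arrays of the same slide or of the same number. With either block all 12 calls stood. The count rose to 27 of the 57 with the slide (8 higher and 19 lower, beside 12.2% of all probes, 6.07% higher and 6.15% lower). It rose to 24 with the replicate number (beside 11.1%).

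**Figure D1:**
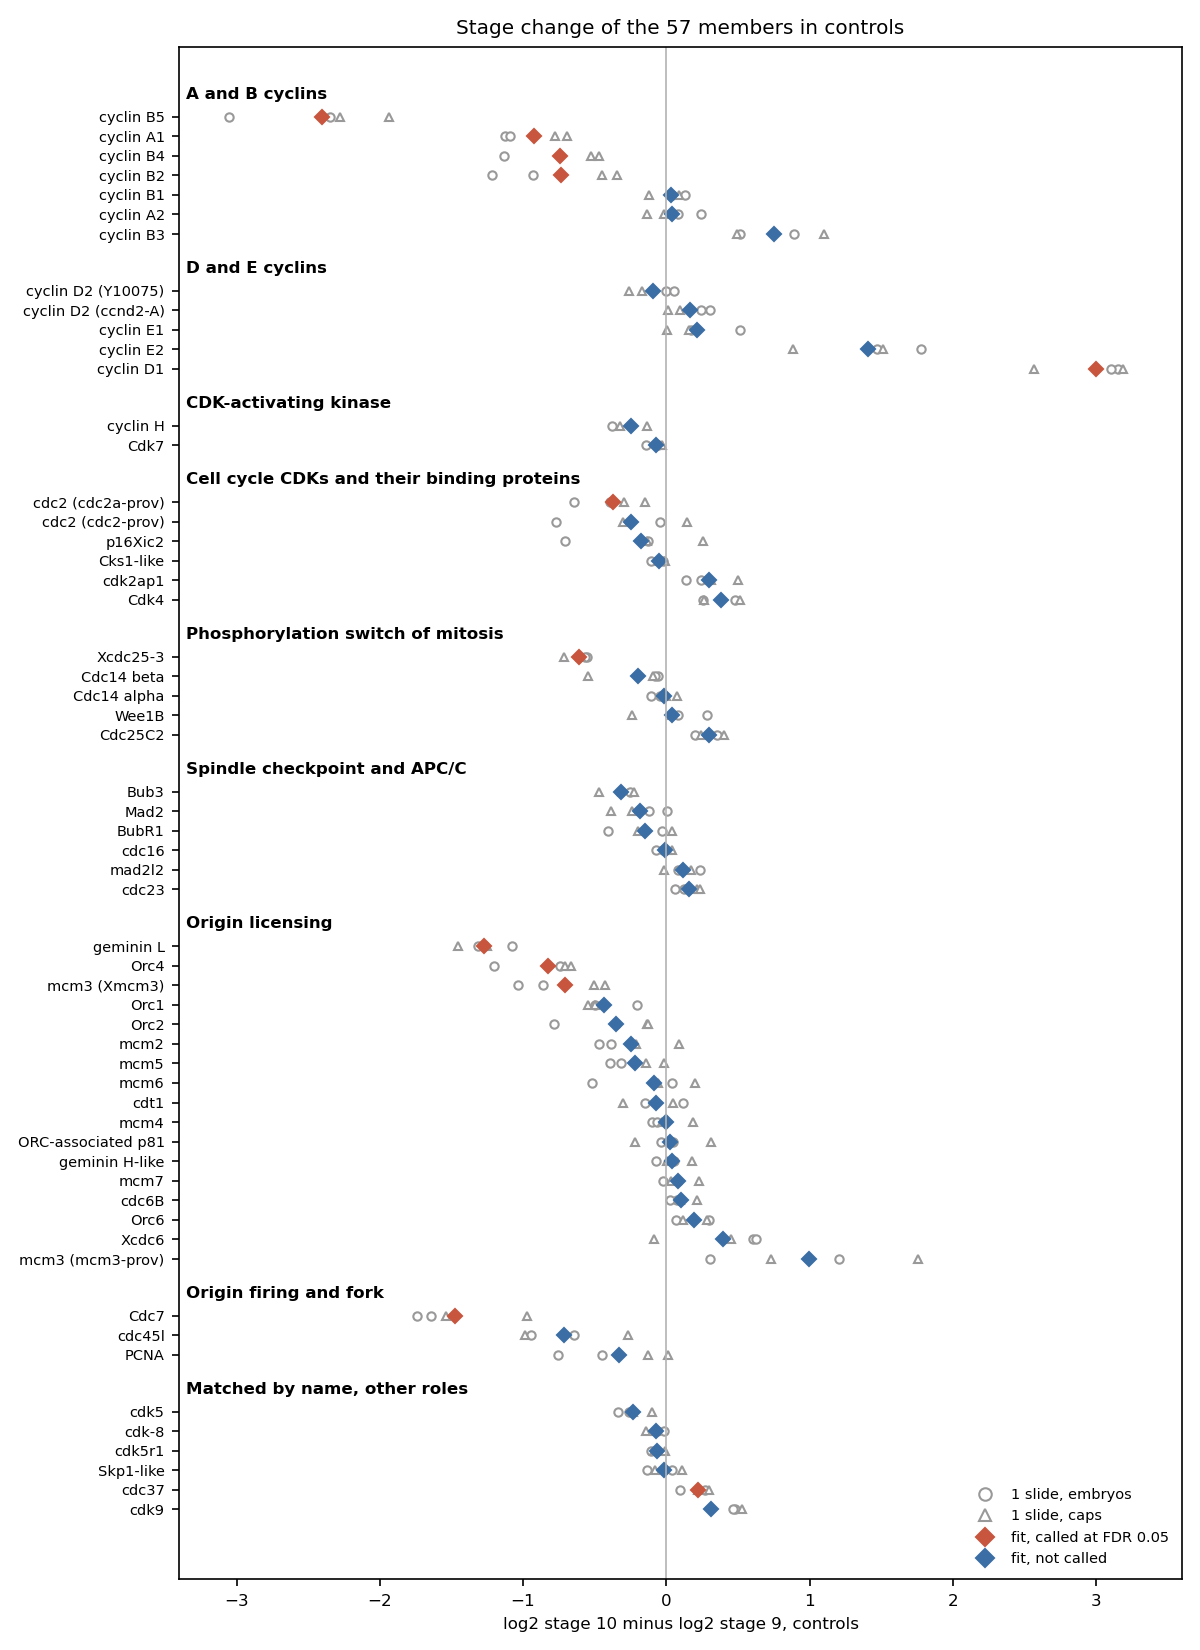
Change from stage 9 to stage 10 in control samples, as log2 differences for the 57 probes grouped by role. Diamonds are fitted differences (red where called at FDR 0.05), and open circles and triangles are the single slides of embryos and caps. Cyclin D1 (3.00) and cyclin B5 (-2.40) mark the ends, and most probes lie near 0.

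The A and B cyclins, which activate Cdk1 for entry into mitosis, held 4 of the 10 falls. Cyclin B5, the steepest of all 57, was at 1.24 and 1.44 in control embryos of stage 9 and at -1.11 and -1.62 at stage 10. In control caps it was at 0.92 and 0.67, and then at -1.35 and -1.26. No array of stage 10 came near any of stage 9, and the difference was -2.40 (SE 0.13, adjusted p = 7.2e-05), a fall of 5.29-fold.

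Cyclin A1, the maternal A cyclin, was at 1.46 and 1.52 in stage 9 embryos and at 0.34 and 0.43 in stage 10 embryos. In caps it went from 0.83 and 0.73 to 0.05 and 0.04. The stages did not overlap, and the change was -0.92 (SE 0.06, adjusted p = 0.000114). Its embryonic counterpart cyclin A2 gave no such step: its 8 control arrays spanned 0.90 to 1.44, the stages overlapped, and the difference was 0.04 (SE 0.08). By tissue, the mean of cyclin A1 went from 1.49 to 0.38 in embryos and from 0.78 to 0.04 in caps, where cyclin A2 was at 1.19 and 1.36 and at 1.04 and 0.96.

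Cyclin B2 went from 0.89 and 1.46 to -0.04 and 0.24 in embryos, and from 0.64 and 0.59 to 0.19 and 0.25 in caps (difference -0.74, SE 0.17, adjusted p = 0.042). Cyclin B4, whose gene identifier now carries the symbol ccnb1.S, fell by the same amount (-0.74, SE 0.16, adjusted p = 0.036). Of its slide pairs 3 of 3 went down, 1 control embryo array having no value. Both calls were close to the threshold, and cyclin B2 kept its call in 4 of the 15 fits that left out 1 array, cyclin B4 in 6 of 14. Cyclin B3 went the other way. Its control arrays of stage 9 ran from -1.87 to -0.63, and those of stage 10 from -0.97 to -0.14, so that the stages overlapped. It was higher at stage 10 on 4 of 4 slides, by 0.75 on average (SE 0.36, adjusted p = 0.41), but the replicate numbers differed nearly as much as the stages did, and with the slide as a block its adjusted p was 0.0078. The cyclin B1 probe was too dim to follow, with a difference of 0.04.

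Of the 5 probes for D and E cyclins, which bring cells from G1 into S phase, 1 was called, cyclin D1. Cyclin D1 was at -4.97 and -4.46 in embryos of stage 9 and at -1.82 and -1.35 at stage 10. In caps it went from -4.51 and -3.79 to -1.32 and -1.22. This was the largest change in the set, 3.00 (SE 0.24, adjusted p = 0.000241) or 8.02-fold, and even after it the transcript remained below the pool on all arrays.

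Cyclin E2 had the next largest positive difference and was not called. It went from 0.41 and 0.79 to 2.19 and 2.26 in embryos and from 1.40 and 2.14 to 2.91 and 3.02 in caps. The stages did not overlap, and the difference of 1.41 (SE 0.35) missed the threshold at an adjusted p of 0.056 and passed it with the slide as a block, at 0.0031. Cyclin E1 changed by 0.21 (SE 0.07, adjusted p = 0.18), from 0.57 to 1.14 at stage 9 to 0.88 to 1.29 at stage 10. The cyclin D2 probes gave 0.16 (ccnd2-A) and -0.09 (Y10075), neither called.

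Of the 6 probes for the cell cycle Cdks and their binding proteins, 1 was called. Of the 2 probes for cdc2, the gene of Cdk1, cdc2a-prov went from -1.23 and -1.05 to -1.62 and -1.70 in embryos and from -1.33 and -1.52 to -1.63 and -1.67 in caps, a difference of -0.37 (SE 0.07, adjusted p = 0.012). The other probe, cdc2-prov, whose gene name also matches other current genes, gave -0.24 and was not called, with arrays between -2.04 and -1.12. Cdk4, the partner of the D cyclins, was higher at stage 10 on 4 of 4 slides by 0.38 (SE 0.10, adjusted p = 0.066, and 0.0046 with the slide as a block). Cdk7 and cyclin H, which form the kinase that activates other Cdks, gave -0.07 and -0.25, the latter without 1 control array that had no value.

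In the switch that frees Cdk1 at mitosis, Wee1 adds an inhibitory phosphate and Cdc25 removes it. Xcdc25-3 was at 0.74 and 0.62 in embryos of stage 9, at 0.18 and 0.06 at stage 10, at 1.11 and 1.03 in caps of stage 9 and at 0.40 and 0.43 at stage 10. It fell in all 4 pairs, by 0.61 on the log2 scale (SE 0.05, adjusted p = 0.000289). Another phosphatase of the family, Cdc25C2, was higher in all 4 pairs, by 0.30 (SE 0.12, adjusted p = 0.29). The probe for Wee1B gave 0.04 and was not well above background in control embryos of stage 9. Of the 6 genes of the spindle checkpoint and the anaphase-promoting complex, 0 were called, and their changes ran from -0.32 (Bub3, adjusted p = 0.10) to 0.16 (cdc23).

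Origin licensing, the loading of the Mcm2-7 helicase onto DNA by Orc, Cdc6 and Cdt1, was the largest group with 17 probes, of which 3 were called, all lower. Geminin binds Cdt1 and so prevents a second round of loading. Geminin L was at 0.94 and 1.03 in stage 9 embryos and at -0.14 and -0.28 at stage 10, and it went from 0.91 and 0.77 to -0.54 and -0.48 in caps. The stages were well apart (difference -1.27, SE 0.08, adjusted p = 0.000101). The probe described as geminin H stayed near its level, all 8 control arrays between 0.90 and 1.3, with a difference of 0.04 (SE 0.12). Cdt1 itself gave -0.07, and the Cdc6 probes 0.40 (Xcdc6) and 0.11 (cdc6B), none of them called.

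Orc4, a subunit of the origin recognition complex, went from 0.21 and 0.47 to -0.54 and -0.73 in embryos and from 0.26 and 0.37 to -0.45 and -0.30 in caps (-0.83, SE 0.10, adjusted p = 0.0019). Its partners were not called, at -0.44 for Orc1, -0.35 for Orc2 and 0.19 for Orc6. Orc1 and Orc2 were lower in all 4 pairs, as were 14% of all probes. Both genes passed with the slide as a block (adjusted p = 0.039 and 0.024).

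Mcm3 was represented by a pair of probes that changed in opposite directions, and only the fall was called. The probe Xmcm3, which matches mcm3.L, was at 1.16 and 1.15 in stage 9 embryos and at 0.12 and 0.29 at stage 10, and went from 1.11 and 1.25 to 0.61 and 0.82 in caps. It fell by 0.71 on the log2 scale (SE 0.06, adjusted p = 0.000377). The gene name of the probe mcm3-prov matches both mcm3.L and the zygotic form zmcm3.L. This probe went from -2.79 and -1.86 to -1.58 and -1.55 in embryos and from -2.60 and -2.06 to -0.85 and -1.33 in caps. Its stages did not overlap either, and the difference of 1.00 (SE 0.27) had an adjusted p of 0.083, or 0.019 with the slide as a block. The other Mcm probes changed by -0.25 (mcm2), 0.00 (mcm4), -0.22 (mcm5), -0.08 (mcm6) and 0.08 (mcm7), and none was called.

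Cdc7, the kinase that fires licensed origins, was the second steepest fall. It was at 0.22 on both control embryo arrays of stage 9 and at -1.52 and -1.42 at stage 10, and went from 0.59 and 0.15 to -0.95 and -0.82 in caps. The stages did not overlap (difference -1.47, SE 0.13, adjusted p = 0.000349), and the fall was 2.77-fold. PCNA, the sliding clamp of the replication fork, gave -0.33, and cdc45l, a partner of the Mcm helicase, gave -0.71 with a large spread between replicates. Neither was called, and both passed with the slide as a block. For PCNA this was the only pass among 14 alternatives (limma, adjusted p = 0.0468). Its control slide pairs were at -0.45 and -0.76 in embryos and at 0.015 and -0.12 in caps. In cdc45l the replicate numbers were further apart than any groups: the 8 arrays of replicate 1 read -0.73 to 0.47 and the 7 of replicate 2 read -2.63 to -1.16. The other 2 probes split without overlap in the opposite order, mcm5 at -0.06 to 0.39 and 0.45 to 0.76, and the ORC-associated p81 at -0.40 to 0.17 and 0.26 to 0.91. Of the 53 probes with all values these were the only ones to split so, 2 higher and 1 lower in replicate 2, beside 2.96% of all probes higher and 2.18% lower. Among the 6 probes that the rule brought in but that were not placed in these roles, 1 was called. This was cdc37, a co-chaperone of Hsp90, higher in all 4 pairs by 0.22 (SE 0.05, adjusted p = 0.035), a call that held in 2 of the 15 fits leaving out an array.

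**Figure D2:**
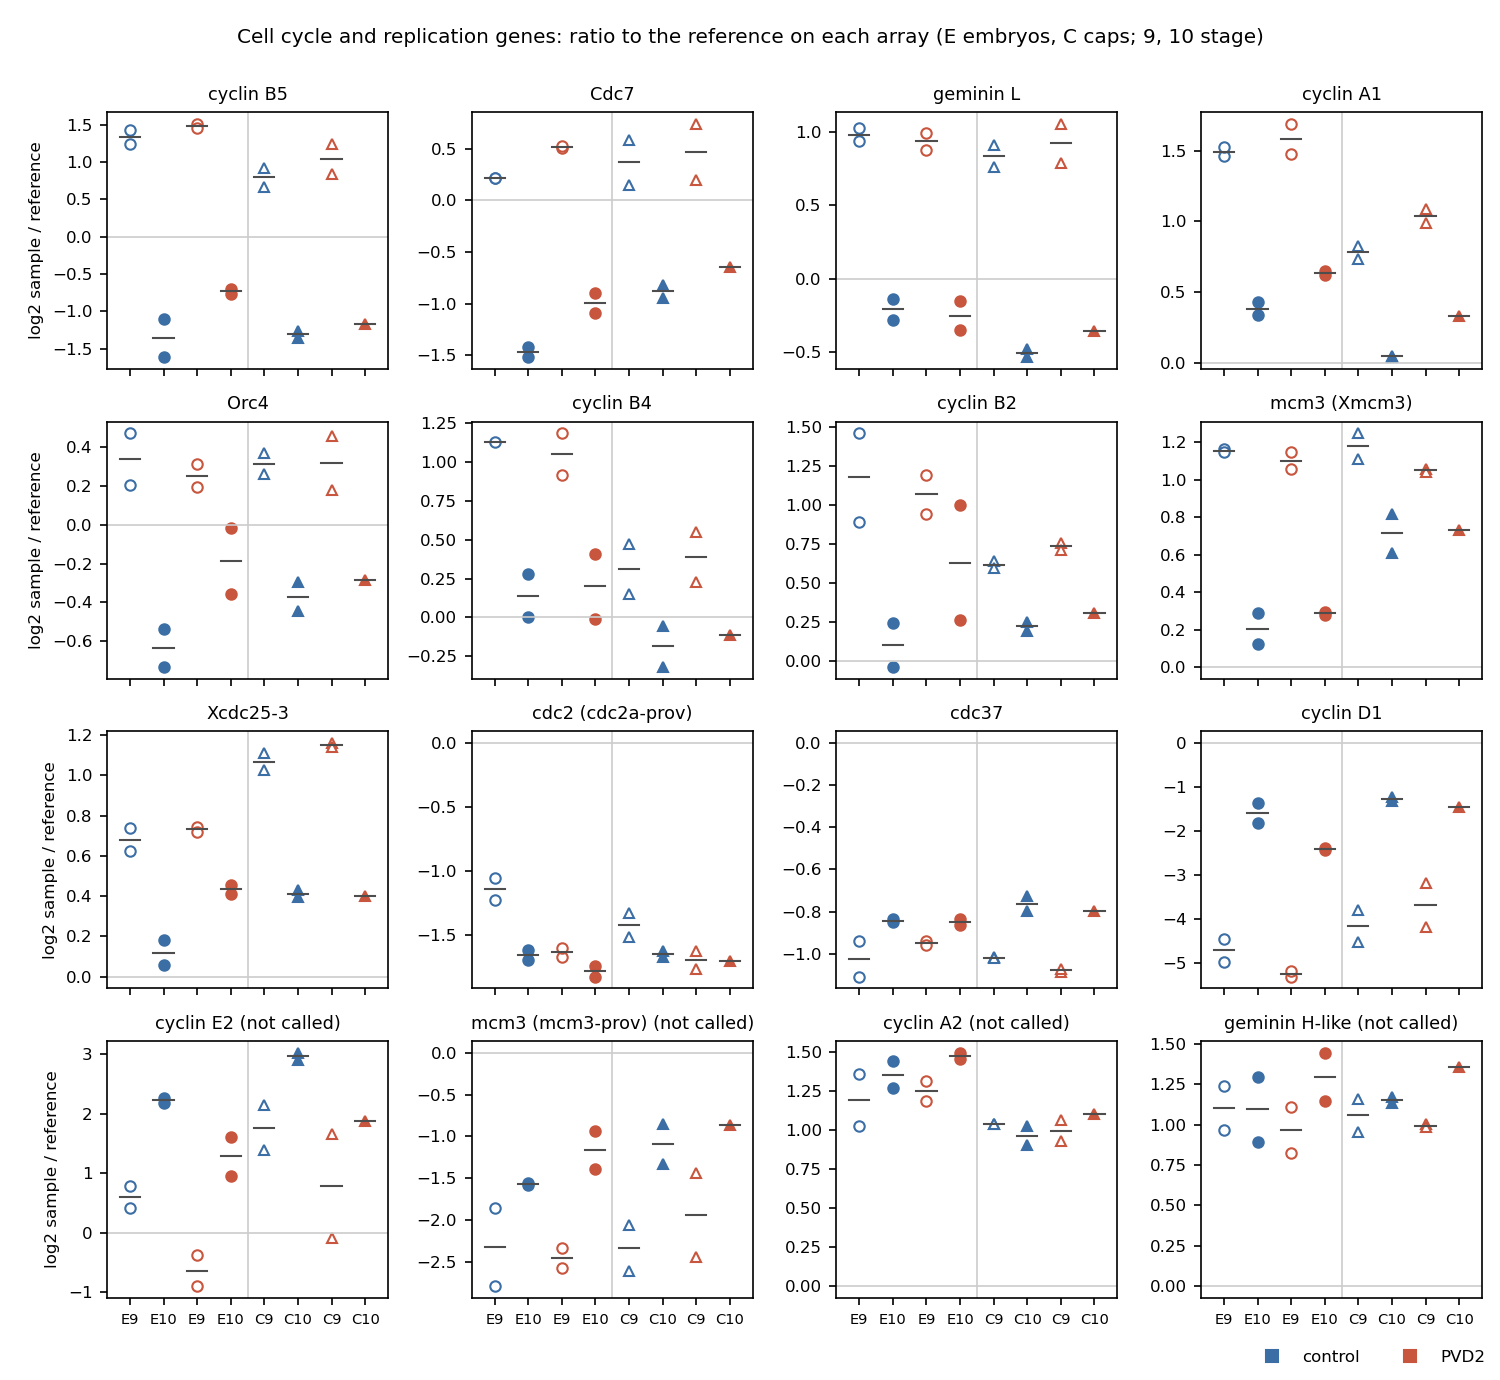
Log2 ratio of sample to reference for selected genes on every array, by tissue, stage and morpholino, with bars at the group means. In cyclin B5, cyclin A1, geminin L and Cdc7 the arrays of stage 10 lie below those of stage 9 in each tissue, and in cyclin D1 they lie above.

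Counting only genes whose 4 control arrays of stage 10 lay wholly on one side of the 4 of stage 9, 9 of the 54 with all values were lower, against 3.37% of all probes, and 5 were higher, against 2.69%. The 9 were cyclins A1, B2 and B5, cdc2a-prov, Xcdc25-3, Orc4, geminin L, Xmcm3 and Cdc7. The 5 were cyclins D1 and E2, Cdk4, mcm3-prov and cdc37. A change in the same direction in every control slide pair was met by more probes. Of the 54, 20 were lower in this way, against 14% of all probes, and 13 were higher, against 14.9%. For cyclin B3, Cdk4, Cdc25C2, Orc1 and Orc2, which were not called, the shared direction therefore says little by itself. Markers of other cells moved with stage as well. In controls of both tissues, 5 of 10 vegetal and mesendodermal probes and 5 of 9 ectodermal ones were called higher at stage 10, beside 2.21% of all probes. Positive differences, called or not, were found in 10 of the 10 and 8 of the 9. The mean ratio of the vegetal and mesendodermal markers went from between 0.10 and 0.21 to between 1.56 and 1.90 in control embryos. In control caps it was -2.40 to -2.36 at stage 9 and -2.05 to -1.82 at stage 10. The mean ratio of the ectodermal markers in control caps was -1.75 to -1.67 at stage 9 and -0.87 to -0.38 at stage 10. In control caps alone, 6 of the 10 falls were called, beside 1.07% of all probes called lower there. The same cap arrays entered the pooled comparison that chose the 10, so the 6 are not a separate finding. The part of cell composition in the 10 falls was not tested.

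Taken by tissue, 9 genes were called in control embryos (2.62% of all probes) and 7 in control caps (1.79%), and all 7 were among the 9. These 7 were cyclin B5 (-2.70 in embryos and -2.11 in caps), Cdc7 (-1.69 and -1.25), geminin L (-1.20 and -1.35), cyclin A1 (-1.11 and -0.73), Xmcm3 (-0.95 and -0.47), Xcdc25-3 (-0.56 and -0.66) and cyclin D1 (3.13 and 2.88). The call of Xmcm3 in caps held under 5 of 14 alternatives and in 4 of the 15 fits leaving out an array. Orc4 (-0.97) and cdc2a-prov (-0.52) were called in embryos only, but the test of a difference between the tissues called none of the 57 (0.0466% of all probes). Before adjustment 3 of the 57, all with the more positive change in caps, were under 0.05, beside 899 of 21450 probes. The smallest p in that test belonged to Xmcm3, whose fall was smaller in caps by 0.48 (SE 0.13, adjusted p = 0.64). With the slide as a block the counts were 18 in embryos (8.02% of all probes) and 11 in caps (5.49%), and with the replicate number 16 (6.94%) and 11 (4.51%).

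PVD2 samples, which share no array with the controls, were compared between stages in the same way. Of the 57 genes, 8 were called between stages (3.49% of all probes), and all 8 were among the 12 of the controls. All 12 had the same sign, as did 51 of the 57, and across the 57 the changes in the controls and in PVD2 had a Pearson r of 0.97, a description only, since the arrays share slides and reference. Cyclin B5 was at 0.84 to 1.51 in the 4 PVD2 arrays of stage 9 and at -1.17 to -0.70 in the 3 of stage 10, a difference of -2.22 (SE 0.14, adjusted p = 0.000341). Geminin L fell by 1.24, from between 0.79 and 1.06 to between -0.36 and -0.15, and Cdc7 by 1.32. Cyclin A1 (-0.83), Xmcm3 (-0.57), Xcdc25-3 (-0.52) and Orc4 (-0.52, adjusted p = 0.047, called in 3 of 14 fits leaving out an array) were also lower, and cyclin D1 was higher by 2.54 (SE 0.27, adjusted p = 0.0013). Cyclin B2 (-0.43), cyclin B4 (-0.68), cdc37 (0.19) and cdc2a-prov were not called in PVD2. The last changed by -0.08 (SE 0.07) in PVD2 and by -0.37 in the controls, and the difference of 0.29 between these (SE 0.10) was the one with the smallest p in the test of that difference, where it was not called. Neither were cyclin A2 (0.17) and the geminin H probe (0.34), whose differences were positive. The count in PVD2 was 17 with the slide as a block (8.86% of all probes) and 14 with the replicate number (7.86%).

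**Figure D3:**
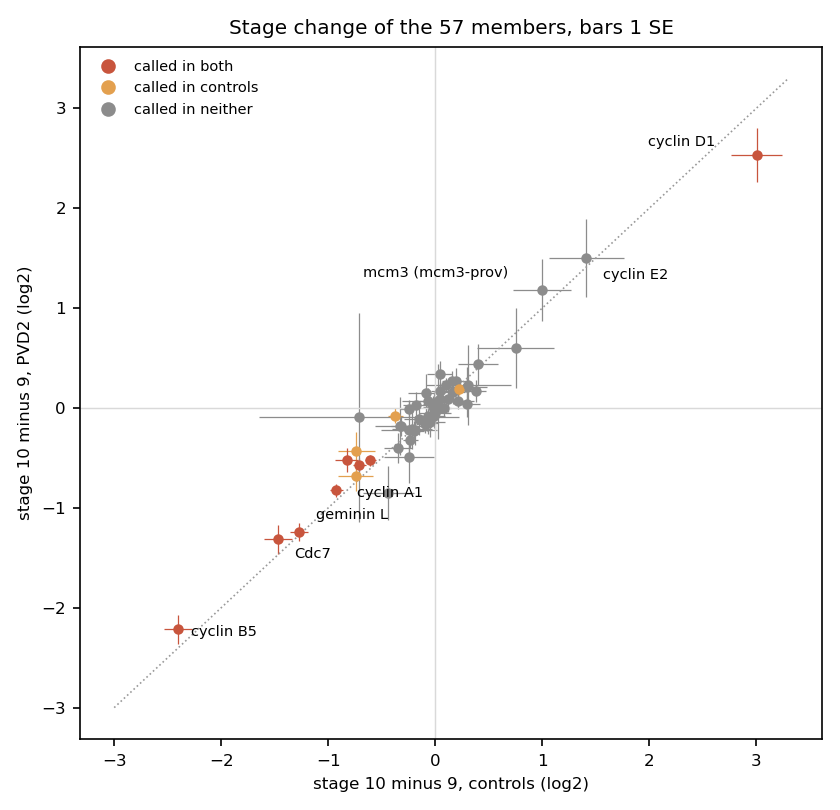
Change from stage 9 to stage 10 in PVD2 samples (vertical) against control samples (horizontal), both as log2 differences averaged over embryos and caps, for the 57 probes, with bars of 1 standard error. The points lie along the diagonal from cyclin B5 (-2.40 and -2.22) to cyclin D1 (3.00 and 2.54).

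Whether PVD2 altered the step between stages was tested directly. The PVD2 effect at stage 10 minus that at stage 9 was called for 0 of the 57 genes and 0% of all probes (limma; before adjustment, 1 of the 57 and 340 probes were under 0.05). The 57 differences ran from -0.47 to 0.62, with a median SE of 0.17. For cyclin B5 and geminin L, whose steps were the steepest falls in PVD2 along with Cdc7, the control and PVD2 courses differed by 0.19 and 0.04.

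Averaged over tissues and stages, the comparison of PVD2 with the control called 0 of the 57 genes and 1.13% of all probes (0.173% higher and 0.957% lower). With so low a share, a count of 0 among 57 does not set these genes apart from the array. At an unadjusted p under 0.05 there were 8 of the 57, 5 of them higher, beside 1730 of the 21420 probes tested. The 57 differences lay between -1.06 and 0.29 with a median SE of 0.09, and 1 was larger than 0.5. No gene of the 53 with all values had PVD2 arrays wholly on one side of the control arrays (0.291% of probes were lower in that way and 0.00477% higher). Both stages and both tissues were pooled in that count. A gene that differs between them could hardly meet it, so it says little about PVD2. Within slides, 6 of 53 were lower in PVD2 in every pair, beside 5.04% of all probes, and 3 were higher, beside 2.66%. The 6 were cyclin E2, cdc2a-prov, mad2l2, cdc16, mcm6 and cdk5, and the 3 were cyclin B5, Cdc7 and Xcdc25-3. Among these, mcm6 was not well above background on any embryo array, and its cap pairs were at -0.057, -0.013 and -0.012. With the slide as a block 4 genes passed (3.56% of all probes), and the same number with the replicate number as a block (3.07%): cyclin E2, cdc2a-prov, cdk9 and cyclin A1.

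Cyclin E2 showed the largest of these. Control embryos read 0.41 and 0.79 at stage 9 where PVD2 embryos read -0.90 and -0.38, and at stage 10 the controls read 2.19 and 2.26 where PVD2 read 0.96 and 1.60. In caps of stage 9 the controls were at 1.40 and 2.14 and PVD2 at -0.09 and 1.66, and at stage 10 the controls were at 2.91 and 3.02 and the PVD2 array at 1.88. It was lower in PVD2 in 7 of 7 pairs on the same slide, by 1.06 on average (SE 0.26, adjusted p = 0.14, and 0.015 with the slide as a block). The rise of cyclin E2 with stage was still seen in PVD2, at 1.5 (SE 0.39, adjusted p = 0.083).

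The cdc2a-prov probe was also lower in 7 of 7 pairs, by 0.24 (SE 0.05, adjusted p = 0.073, and 0.014 with the slide as a block). In embryos of stage 9 the controls were at -1.23 and -1.05 and PVD2 at -1.67 and -1.60. Control embryos of stage 10 were at -1.62 and -1.70. The other cdc2 probe, cdc2-prov, went mostly the same way without a call. It read -1.27 and -1.27 in control embryos of stage 9 and -1.47 and -1.10 in PVD2. Its pairs of replicate 2 at stage 9 went up, by 0.17 in embryos and 0.05 in caps. The other pairs were at -0.20 in embryos and -0.20 in caps of stage 9. At stage 10 they were at -0.10 and -0.05 in embryos and -0.19 in caps. Across the alternative fits its mean difference ran from -0.27 to -0.04, and it was not called. Cyclin A1 was higher in PVD2 in 6 of 7 pairs, by 0.22 (SE 0.04, adjusted p = 0.061, and 0.042 with the slide as a block). At stage 10 its PVD2 arrays read 0.65 and 0.62 in embryos, above the controls at 0.34 and 0.43, and 0.33 in caps, above 0.05 and 0.04. Cdk9, the kinase of the transcription elongation factor P-TEFb, was lower in 6 of 6 pairs (1 control array had no value) by 0.47 (SE 0.28, adjusted p = 0.79), and its arrays differed so much between replicate numbers that it passed only with a block, at 0.0084.

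Of the genes that fell with stage, cyclin B5 and Cdc7 were a little higher in PVD2 in 7 of 7 pairs, by 0.29 (adjusted p = 0.35) and 0.28 (adjusted p = 0.41), and Xcdc25-3 by 0.11 (adjusted p = 0.41). None of these was called, with or without a block. Geminin L, Xmcm3, cyclin A2, cyclin D1 (-0.27, SE 0.18) and mcm3-prov (0.22, SE 0.21) were not called either.

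**Figure D4:**
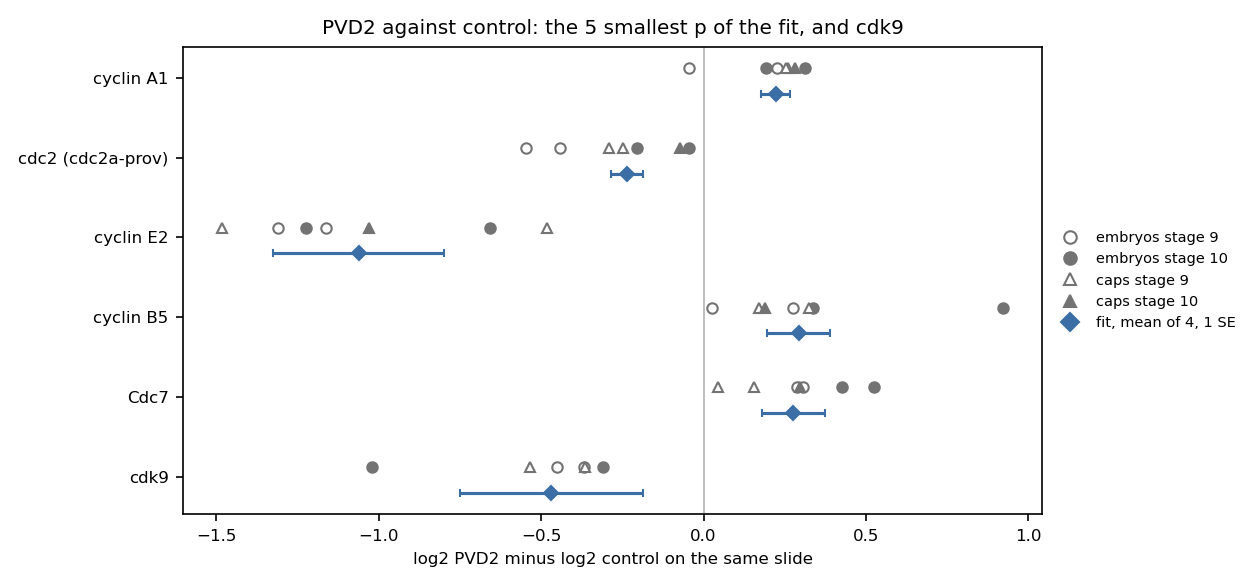
PVD2 minus control on the same slide (log2), for the 5 genes with the smallest p in the mean of both tissues and stages and for cdk9, with the fitted mean and 1 standard error below the single pairs. All pairs of cyclin E2, cdc2a-prov and cdk9 lie below 0, and cyclin A1 has 1 pair below 0.

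None of the 57 genes was called in any of the 4 single comparisons of PVD2 with control. These were in embryos of stage 9 (0.00465% of all probes called) and stage 10 (0.102%) and in caps of stage 9 (0.0559%) and stage 10 (0.00933%). In that order, 4, 6, 2 and 1 of the 57 had an unadjusted p under 0.05. Over all probes it was 1448 of 21487, 949 of 21495, 620 of 21461 and 702 of 21442. Nor was a difference of the PVD2 effect between caps and embryos called for any of them (0% of all probes). At an unadjusted p under 0.05 it was 2 of the 57, beside 681 of 21420 probes. Those 2 were p16Xic2, a Cdk inhibitor, with a PVD2 effect higher in caps by 0.53, and cyclin D1, by 0.82 (SE 0.36), neither of them called. For cyclin D1, PVD2 embryos were at -5.31 and -5.19 at stage 9 and at -2.43 and -2.38 at stage 10, below each control embryo array of that stage, while PVD2 caps were at -4.18 and -3.18 and then at -1.45, within or above the range of the control caps at stage 9 and below it at stage 10. In PVD2 embryos of stage 9 the mean ratio of the vegetal and mesendodermal markers was -0.79 to -0.27, against 0.10 to 0.21 in the controls, and that of the ectodermal markers was -2.78 to -2.46, against -1.93 to -1.81. At stage 10 the vegetal and mesendodermal mean in PVD2 embryos, 1.42 to 1.68, overlapped that in control embryos, 1.56 to 1.90. The ectodermal mean in PVD2 embryos of that stage, -1.53 to -0.66, took in the whole range of the control embryos. The part of cell composition in the cyclin D1 values was not tested.

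Caps and embryos differed in 13 of the 57 genes in the controls, 7 of them higher in caps and 6 lower, beside 22.5% of all probes (10.2% higher and 12.3% lower), so the share was near that of the arrays at large. The 13 included dim probes: mcm6 and cyclin D2 (Y10075), each well above background on 7 of the 15 arrays, and cdk-8, on 2. The mcm6 probe, called lower in caps, was not well above background in control embryos. In the Feature Extraction ratio and the authors' values its difference was 0.95. Cyclin A1 was lower in caps by 0.53, cyclin B4 by 0.57, cyclin H by 0.45 and Bub3 by 0.43, while cdc16, a subunit of the anaphase-promoting complex, was higher by 0.70, cdk5 by 0.61, cyclin E1 by 0.35, Xcdc25-3 by 0.34 and Xmcm3 by 0.27. With the slide as a random block the count was 12 (17.4%), and blocking on the replicate number gave 27 (33.9%). Each slide held 1 tissue and the tissues were scanned on different days, so tissue, slide and scan day cannot be told apart.

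Other genes of the cell cycle and replication came from a list of 88 symbols, of which 36 were found on the array with 37 probes. From stage 9 to 10 in controls, 6 of the 37 were called lower, beside 2.76% of all probes, and 0 were called higher. Their median change was -0.05, with 22 differences negative and 15 positive. The same 6 were called in PVD2. They were anapc10, a subunit of the anaphase-promoting complex (-1.19, SE 0.08), rrm2, the small subunit of ribonucleotide reductase (-0.96, SE 0.15), fzr1, the Cdh1 activator of the anaphase-promoting complex (-0.90, SE 0.09), rad17, a checkpoint clamp loader (-0.80, SE 0.10), the kinesin kif2c (-0.50, SE 0.10) and e2f4 (-0.41, SE 0.09). In this list 3 of the 37 probes were called lower in PVD2 than in the control, beside 0.957% of all probes, and 0 were called higher. Called or not, 16 of the 37 differences were negative and 21 positive, with a median of 0.03. The 3 called were cenpe, a kinetochore motor (-1.08, SE 0.11, adjusted p = 0.0023), ttk, the checkpoint kinase Mps1 (-0.57, SE 0.09, adjusted p = 0.020), and fzr1 (-0.36, SE 0.07, adjusted p = 0.037).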

How the data were processed

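Per the labels, the authors hybridised total RNA to 2-colour Agilent arrays and scanned them with Feature Extraction (version 9.5.1.1 in the file headers). The intensity values used, mean and background signals of both dyes, were deposited by the authors before normalization. The log10 ratio and the authors' table of 16 arrays, log10 values whose differences between arrays followed sample over reference (r 0.95 to 0.99), served as alternatives. That table's centring was not given in the sources used here, and its values stood closer to log10 Cy3 than to a ratio.

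Control spots (1417) and outlier-flagged spots (998 to 1831 per array) were left out. For background, normexp was applied (offset 50, which draws dim ratios toward 0). Fitted on all spots, it failed on some arrays (the median absolute deviation of ratios ran from 0.027 to 0.347), and it was therefore fitted on spots without outlier flags (0.268 to 0.349), a choice made after seeing the data. Loess followed within arrays, and the 2 spots per probe were averaged. Of the 21495 probes, 551 lack a value on at least 1 array, and a probe enters a fit with the arrays that have one. Group means of 8 groups were fitted in limma 3.58.1 (R 4.3.3), with Benjamini-Hochberg adjustment over all probes at an FDR of 0.05. The script was tested on simulated data. Replicate numbers pair the samples: in all 21 pairs of groups, arrays of the same number deviated together (9 pairs within a tissue, r 0.59 to 0.81, and 12 across tissues, 0.51 to 0.73). Each of the 4 slides holds 1 tissue and 1 replicate number. The methods' 3-way ANOVA was replaced by these contrasts.

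Alternatives were other background, normalization, filter, block and variance settings, and each array left out. Gene symbols were updated through RefSeq by gene name or gene identifier, not by probe sequence. Of the 57 probes 27 matched 1 current symbol, 23 several and 7 none. Array data carry no count depth, so the number of arrays sets the error given. Named were, per comparison, called genes (up to 12 each way) or the 5 smallest p, plus maternal and zygotic pairs and key regulators, and others named to fill out a role were added after their values were seen. Members and lists were chosen with earlier results of these data known.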

Additional observations from a re-analysis of the deposited data

How the results depend on the processing

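With 2 samples per group and 1 in PVD2 caps of stage 10, which is assumed to vary like the others, small changes cannot be resolved. Of the 12 stage calls in controls, 8 held under all 14 alternatives and all 15 fits leaving out an array: cyclins A1, B5 and D1, Xcdc25-3, Orc4, geminin L, Xmcm3 and Cdc7. cdc2a-prov and cyclin B2 were called under 8 of 14, cyclin B4 under 11 and cdc37 under 5.

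With the replicate block the counts of genes called became 24 by stage in controls, 16 in control embryos, 11 in control caps, 14 in PVD2, 4 for PVD2 against control and 27 for caps against embryos. With the slide block they were 27, 18, 11, 17 and 4, and with slide as a random block, a setting added after seeing the data, 12 for caps against embryos. All calls made without a block held with the replicate or slide block, and the blocks changed no other call than those added here and in the results. Median centring gave 4 in control caps (176 of all probes) and 27 for caps against embryos (8722 of all probes), where an offset of 16 gave 8 (4221) and normexp fitted on all spots, also added, gave 6 (1624). PVD2 against control gave 1 without background correction (cyclin A1, beside 231 of all probes). In embryos of stage 9 the log ratio of Feature Extraction gave 1 (565 of all probes). The authors' values gave 2 there, with 16 arrays (684 of all probes) or 15 (614), where the main fit called 1 of all probes. The median stage change was -0.11 in the Feature Extraction ratio, and the median PVD2 effect 0.056 there and 0.051 and 0.053 in the authors' values on 16 and on 15 arrays. Between caps and embryos cyclin A2 turned to 0.044 and cdk-8 to -0.070 under median centring, and mcm6 to 0.95 in the Feature Extraction ratio and in both sets of authors' values. The cause was not tested.

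Leaving out 1 array gave 9 to 12 by stage in controls, 7 to 10 in control embryos, 5 to 7 in control caps, 7 to 10 in PVD2, and 10 to 15 for caps against embryos. PVD2 against control gave 0 to 1: without control embryos stage 9 replicate 1 (cdc2a-prov), PVD2 embryos stage 9 replicate 2 (cyclin A1) or PVD2 caps stage 9 replicate 2 (cyclin E2). In embryos of stage 9 it gave 0 to 2, cdc2a-prov and the dim mcm6 passing without control replicate 1. The remaining PVD2 and interaction counts stayed at 0. The share of all probes called in these fits is not given, so the counts do not tell these genes from the array at large. The medians ran from -0.087 to -0.031 for stage and from -0.016 to 0.013 for PVD2. Comparisons that need PVD2 caps of stage 10 had no value without its array.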
